A study of Rattus norvegicus with 10 samples.

Results

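Transcripts of 10 neuropeptide precursors other than those of vasopressin, oxytocin and galanin were examined in the neurointermediate lobe of the rat pituitary. The members were Pdyn, Penk, Cck, Cartpt, Nmb, Npy, Tac1, Sst, Vip and Nts, 10 of the 14217 genes to which the array annotation gave a probe set with exactly 1 symbol. They were read by 11 probe sets, since Pdyn had 2. The lobes came from male Sprague Dawley rats of 10 to 12 weeks, either dehydrated for 3 days or kept as controls. There were 5 arrays per condition. As the RNA on an array was a pool of 5 animals, replicate error here is that between pools. The tissue was taken from the sample labels, which all give the neurointermediate lobe, although the submitters' design description mentions the supraoptic nucleus. Values are array signals on a linear scale in arbitrary units, which the authors had scaled to a common level on every array.

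Neuropeptides are cut from larger precursors in secretory granules by prohormone convertases, then trimmed and, in many cases, amidated. In the neural lobe they are stored in the axon endings of magnocellular neurons, where dynorphin accompanies vasopressin and cholecystokinin accompanies oxytocin. The intermediate lobe is built mostly of melanotrophs, endocrine cells whose own precursor is Pomc. Several members are also made in the neighbouring anterior lobe, among them Nmb, whose peptide is found in rat thyrotrophs.

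Of these precursors only Nmb, which encodes the bombesin-like peptide neuromedin B, passed the test between dehydrated and control lobes. Its signal fell to 138 ± 22.6 in dehydrated lobes, against 261 ± 46.5 in control lobes (SD, n = 5 each). The opioid precursors Pdyn and Penk, the cholecystokinin precursor Cck, and Cartpt and Npy, precursors of peptides that act on feeding, did not pass. Tac1, Sst, Vip and Nts had signals below the filter on dim probe sets.

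The promoters of Nmb, the gene that fell, and of Pdyn, the partner of the vasopressin gene Avp, are shown for reference to the results that follow. They are the 300-base promoter windows of RefSeq genes on assembly GRCr8, where 8 of the 10 members were matched. The Nmb window is chr1:144281373-144281672 on the minus strand, with capitals at its single CACGTG. The Pdyn window is chr3:137366454-137366753 on the minus strand, with capitals at its single TATAAA. The Pdyn window holds 250 bases before and 50 bases after the outermost start of the gene in RefSeq. The Nmb window begins 8851 bases inside the outermost RefSeq boundary of its gene, so it belongs to an inner start, and which start is used in the lobe was not measured.
Nmb: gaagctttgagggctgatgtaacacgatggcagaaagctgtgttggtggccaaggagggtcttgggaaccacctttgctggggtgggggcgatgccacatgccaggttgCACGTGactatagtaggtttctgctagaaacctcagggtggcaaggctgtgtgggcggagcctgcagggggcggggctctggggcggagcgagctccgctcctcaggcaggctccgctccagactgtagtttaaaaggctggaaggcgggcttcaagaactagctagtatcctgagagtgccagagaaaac
Pdyn: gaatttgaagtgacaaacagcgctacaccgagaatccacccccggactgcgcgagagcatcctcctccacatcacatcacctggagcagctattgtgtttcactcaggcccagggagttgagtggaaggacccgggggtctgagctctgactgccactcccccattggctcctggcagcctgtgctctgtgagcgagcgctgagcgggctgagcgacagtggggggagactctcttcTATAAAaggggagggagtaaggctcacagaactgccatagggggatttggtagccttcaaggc

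Short motifs were counted on both strands of these windows, with no overlap between those found in Nmb and Pdyn. CACGTG, an E-box, was present in the windows of Nmb and Tac1 and in 6.42% of 33469 promoters of the same length. TATAAA was present in those of Vip and Pdyn and in 14.2% of all. The full cyclic AMP response element TGACGTCA was present in those of Cartpt and Sst and in 1.83% of all, and its core TGACG, which the full element contains, in 5 members, Vip, Cartpt, Tac1, Nts and Sst, and in 21.2% of all. The AP-1 motif TGANTCA was present in that of Nts alone and in 7.33% of all, and AAAGGTCA, the motif of Nr4a receptors, in none of the 8 and in 1.43% of all. The Vip window holds 2 bases before and 298 bases after the outermost RefSeq start of its gene, and the Tac1 window 11 and 289. That of Cartpt begins 309 bases inside the outermost boundary. A match is a run of letters, and no binding was measured.

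The question of the comparison was which of these precursors differed in transcript level after water deprivation. Signals were taken as log2(signal + 5) and fitted with limma over the 18625 probe sets in the brightest 60% of the array by mean log2 value, and p-values were adjusted by Benjamini-Hochberg over all of them. Of the 11 member probe sets, 7 from 6 genes entered the fit. Of these 7, 1 passed an adjusted p of 0.05, lower in dehydrated lobes, and none passed as higher. Over all tested probe sets 2.46% passed, 0.784% lower and 1.68% higher. These were 146 lower and 312 higher probe sets, and 113 lower and 456 higher after median normalization. At an unadjusted p under 0.05, 2 of the 7 were counted, Nmb and Penk, against 17.4% of all tested probe sets. The median log2 change was -0.13 over the 7 and -0.01 over all tested, and 4 of the 7 changes were negative.

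**Figure D1:**
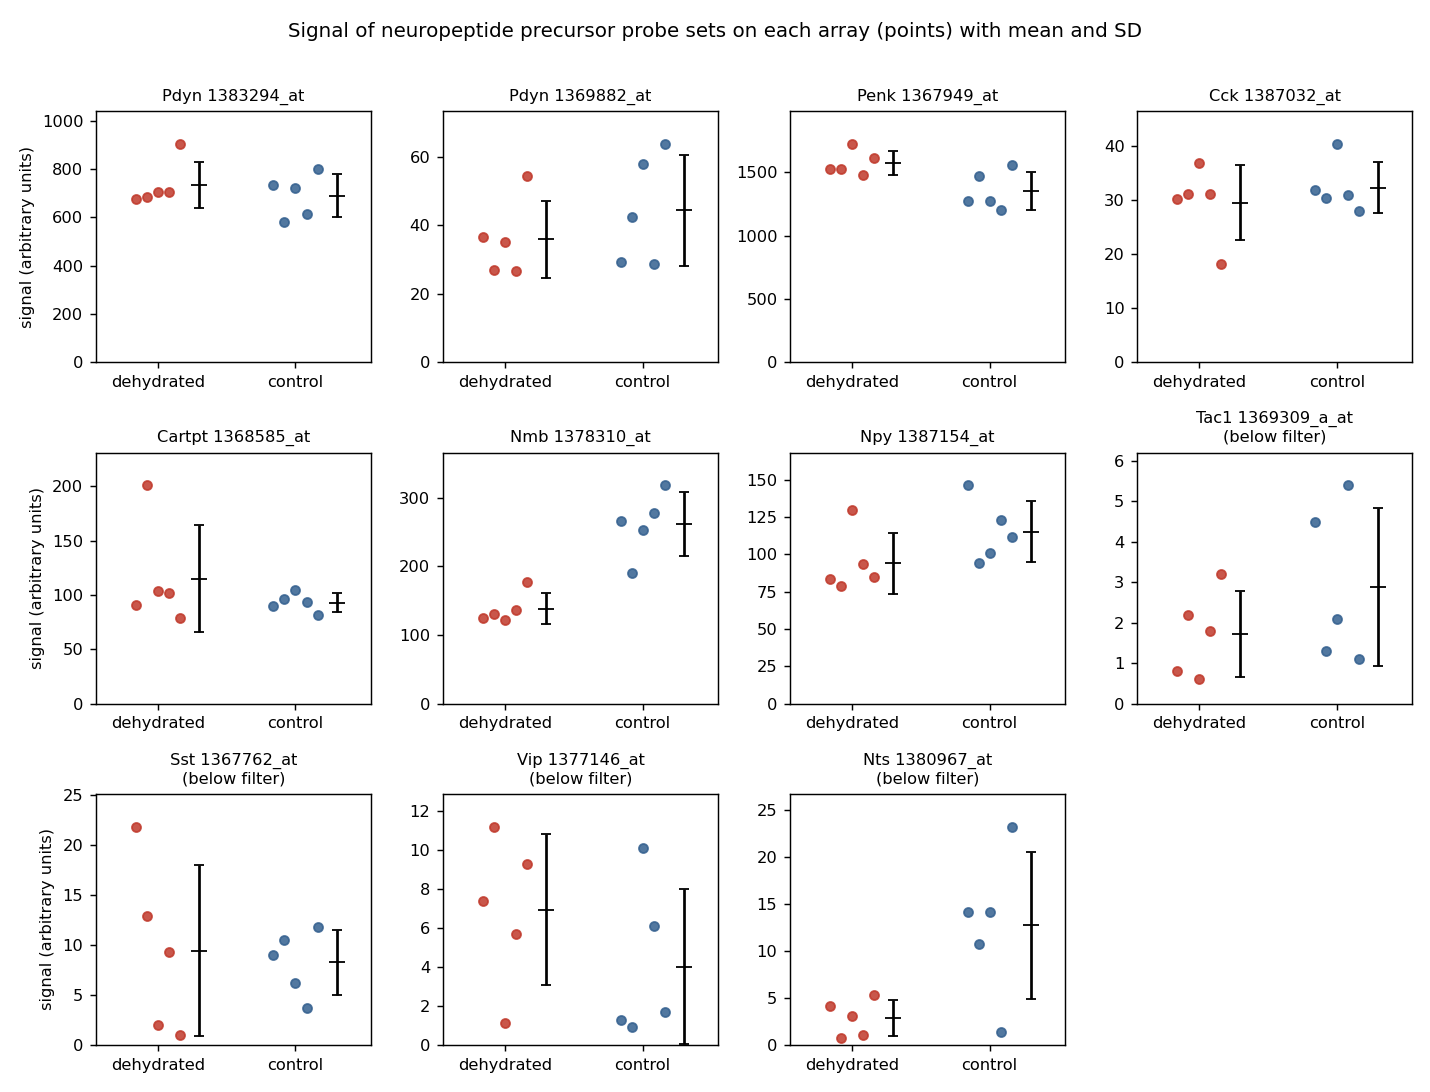
Signal (arbitrary units, linear axes from 0) of the 11 probe sets of the 10 precursors on each of the 5 dehydrated (left, red) and 5 control arrays (right, blue), with the mean and SD beside each group. The groups are separate for Nmb, at 121.8 to 177.4 in dehydrated and 190.3 to 318.3 in control arrays, and overlap in every other panel.

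Nmb (Entrez Gene 499194) had signals of 125.2, 130.6, 121.8, 136.5 and 177.4 on dehydrated arrays 1 to 5, against 265.6, 190.3, 253.7, 278.6 and 318.3 on control arrays 1 to 5. Every dehydrated array lay below every control array, and the nearest pair was dehydrated 5 and control 2. Of the 7 probe sets this was the only one whose groups did not overlap, while 4.59% of all tested probe sets had no overlap and 1.81% had none with dehydrated lower. The log2 change of Nmb was -0.89 ± 0.13 SE (95% interval -1.16 to -0.62, limma adjusted p = 0.000981), which is a signal 1.85-fold lower in dehydrated lobes on that scale. The exact two-sided permutation test gave p = 0.00794 (n = 5 each), the smallest it can give with these arrays. By size it was number 29 among the 146 probe sets that passed as lower. In a tissue sample, fewer cells that make a transcript and less of it in each cell cannot be told apart.

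The call of Nmb held under each of its 23 alternatives, its log2 change running between -0.99 and -0.81 and its limma adjusted p between 0.000222 and 0.00972. With a covariate averaged from 6 anterior lobe hormone genes, its change was -0.86 (adjusted p = 0.00216). The 6 include Fshb, which itself passed as lower (-0.86), and Tshb, at 1.17 without passing. Their mean is therefore not a measure of anterior lobe content alone. With the 3' to 5' ratio, a measure of RNA integrity, as a covariate the change of Nmb was -0.81 (adjusted p = 0.00269). Without dehydrated 5, the array nearest to the controls, it was -0.98 (adjusted p = 0.000222).

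Markers of several cell types moved between the same arrays, and their part in the change of Nmb was not tested. Of 4 measured melanotroph markers, 1 fell and none rose. That was Pcsk2, the convertase of melanotrophs, at -0.88 (limma adjusted p = 0.00219), while Pomc at -0.09, the dopamine receptor gene Drd2 at -0.08 and the lineage factor gene Tbx19 at -0.01 did not pass (adjusted p = 0.837, 0.594 and 0.974). The summed signal of the 4 was 2683 to 3174 in dehydrated and 3117 to 3509 in control arrays. Of 9 pituicyte markers, 3 rose and none fell, led by the glial filament gene Gfap at 2.38 (adjusted p = 5.30e-06), followed by the transcription factor gene Lhx2 at 0.39 and the glutamate transporter gene Slc1a3 at 0.36. The other probe sets of Slc1a3 gave 0.15 and -0.39 (adjusted p = 0.776 and 0.459). Of the 6 that did not pass, S100b at -0.21, the water channel gene Aqp4 at -0.22 and the homeobox gene Rax at -0.19 had negative values (adjusted p = 0.317, 0.442 and 0.241), and the median of the 9 was 0.21. Their summed signal was 4973 to 5514 in dehydrated and 4184 to 4736 in control arrays. Of 4 endothelial markers, 3 rose, the receptor genes Flt1 at 0.90 and Kdr at 0.63 and the sialomucin gene Emcn at 0.51. Pecam1 at -0.01 did not pass (limma adjusted p = 0.985), and the groups of Flt1 overlapped. The 4 summed to 932 to 1180 in dehydrated and 590 to 809 in control arrays. None of the markers on the array was at 0 throughout.

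Anterior lobe transcripts were present on all 10 arrays, and their level varied widely within both groups. The 7 measured markers summed to 4848 to 9399 in dehydrated and 2603 to 8003 in control arrays, and their mean log2 signal was 8.45 ± 0.31 in dehydrated and 8.35 ± 0.55 in control lobes (SD, n = 5 each, exact two-sided permutation p = 0.794). Of the 7, 1 fell and none rose. That was Fshb, the beta subunit of follicle-stimulating hormone, at 56.4 ± 3.93 in dehydrated and 110 ± 33.5 in control lobes (SD, n = 5 each, log2 change -0.86, limma adjusted p = 0.00507). Its other probe set gave -0.95 (adjusted p = 0.00882). Tshb, the beta subunit of thyrotropin and a marker of the thyrotrophs that make neuromedin B in rats, was at 78.8, 745.9, 464.4, 546.0 and 462.0 in dehydrated arrays and at 103.4, 128.6, 264.7, 459.6 and 67.9 in control arrays. Its groups overlapped and its change of 1.17 did not pass (adjusted p = 0.260). The 3' to 5' ratio, which is larger where RNA is shortened, was 2.15 ± 0.38 in dehydrated and 1.78 ± 0.48 in control lobes on the log2 scale (SD, n = 5 each, exact two-sided permutation p = 0.214).

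**Figure D2:**
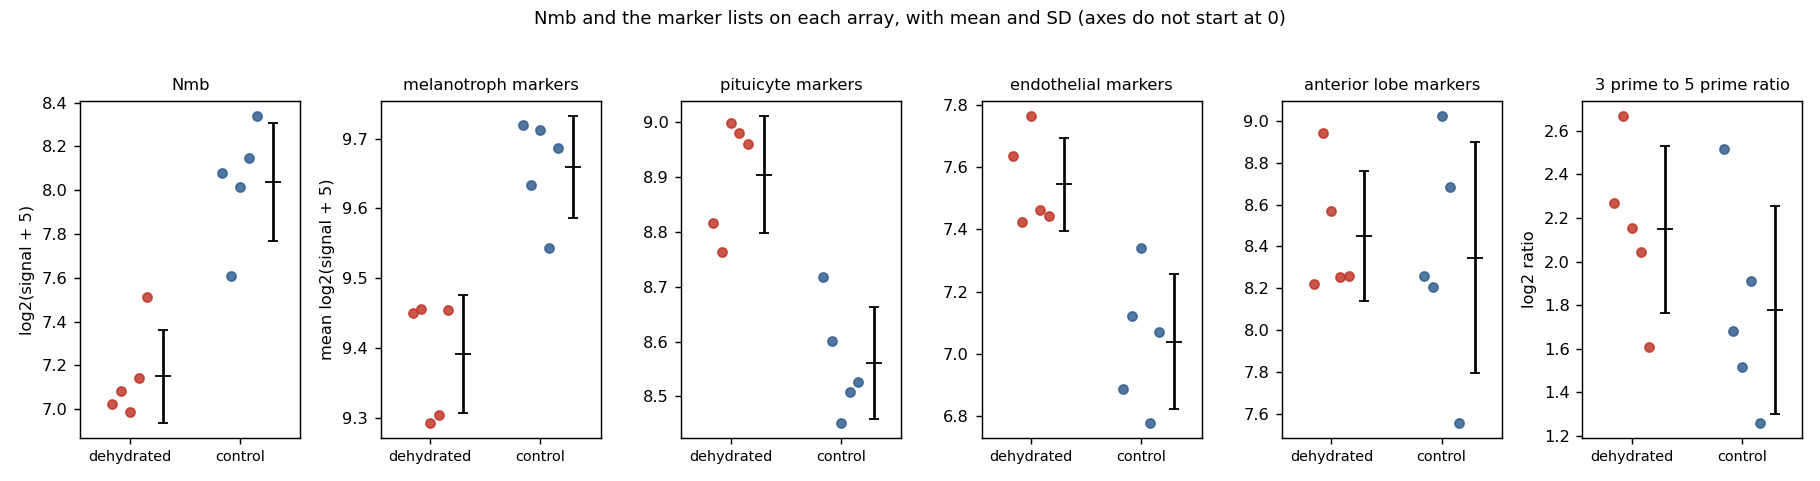
Nmb as log2(signal + 5), the mean log2(signal + 5) of 4 marker lists and the log2 ratio of 3' to 5' control signals on each dehydrated (left, red) and control array (right, blue), with mean and SD. Axes do not start at 0. Groups are separate for Nmb, melanotroph, pituicyte and endothelial markers and overlap for anterior lobe markers and the ratio. Among the melanotroph markers Pcsk2 alone passed between groups.

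The opioid precursors are read by 3 probe sets. Penk (Entrez Gene 29237), the enkephalin precursor, had signals of 1526.4, 1524.2, 1723.2, 1477.4 and 1611.7 on dehydrated arrays, against 1271.1, 1467.6, 1276.0, 1201.0 and 1553.6 on control arrays. All 5 dehydrated arrays lay above 4 of the controls, and the groups overlapped through control 5, which exceeded 3 of them. Its log2 change was 0.22 ± 0.08 SE (95% interval 0.05 to 0.39), a 1.16-fold higher signal that did not pass (limma adjusted p = 0.161). Over its 23 alternatives the change ran from 0.14, with cyclic loess normalization, to 0.27, and adjusted p from 0.0969 to 0.409.

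Pdyn (Entrez Gene 29190), the dynorphin precursor, had signals on its first probe set of 677.0, 684.8, 703.9, 703.8 and 904.5 in dehydrated arrays and of 735.9, 581.6, 720.5, 612.9 and 798.9 in control arrays. The groups overlapped, and dehydrated 5 stood above all other arrays. The log2 change was 0.09 ± 0.10 SE (95% interval -0.12 to 0.30, limma adjusted p = 0.685), an interval that reaches at most a 1.23-fold higher signal. Without dehydrated 5 the change was 0.01 (adjusted p = 0.947).

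The second Pdyn probe set had signals of 36.7, 26.9, 35.2, 26.6 and 54.3 in dehydrated arrays and of 29.2, 42.3, 58.0, 28.6 and 63.8 in control arrays. Its groups overlapped too, with a log2 change of -0.25 ± 0.23 SE (95% interval -0.73 to 0.23, limma adjusted p = 0.621). The 2 probe sets therefore gave changes of opposite sign, neither of which passed. Across the 10 arrays their log2 signals correlated at r = 0.50, and at 0.63 once each group's mean was taken off. Dehydrated 5 and control 5 were the highest of their groups on both.

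Cck (Entrez Gene 25298), the cholecystokinin precursor, was near the lower end of the tested range, whose dimmest probe set had a mean log2 value that corresponds to a signal of 22.4. Its signals were 30.2, 31.1, 36.8, 31.1 and 18.1 on dehydrated arrays and 31.7, 30.3, 40.3, 30.9 and 28.0 on control arrays. Dehydrated 5 was lowest, and control 3 and dehydrated 3 were highest. The remaining arrays of both groups lay at 28.0 to 31.7. The log2 change was -0.13 ± 0.18 SE (95% interval -0.50 to 0.24, limma adjusted p = 0.751), and it was 0.0075 without dehydrated 5 (adjusted p = 0.985).

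**Figure D3:**
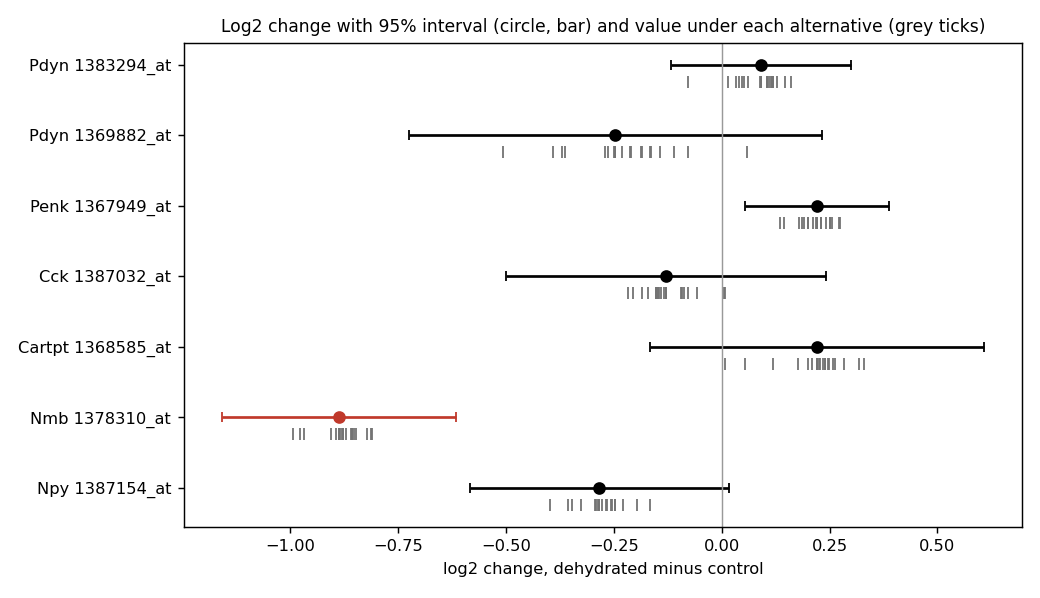
Log2 change (dehydrated minus control) of the 7 tested probe sets as circles with 95% intervals, red where the adjusted p was under 0.05, and the value under each alternative setting as grey ticks. Nmb, at -0.89, is the single probe set past the threshold, and its alternatives stay between -0.99 and -0.81.

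Pdyn and Cck were also set against the genes of the hormones that their peptides accompany, as a difference within each array. Which cells of the lobe held the Pdyn and Cck transcripts was not measured. Avp had signals of 2140 ± 355 in dehydrated and 812 ± 75.5 in control lobes, and Oxt 2003 ± 182 in dehydrated and 1122 ± 58.6 in control lobes (SD, n = 5 each). Avp rose by 1.38 (limma adjusted p = 1.36e-06) and Oxt by 0.83 (adjusted p = 6.08e-06), both as log2 changes. Log2 Pdyn minus log2 Avp, set relative to the mean of the control arrays, was -1.58, -1.63, -1.30, -1.36 and -0.58 in dehydrated arrays and 0.20, -0.06, 0.04, -0.22 and 0.05 in control arrays. All dehydrated arrays lay below all controls, with dehydrated 5 nearest to them. The difference was -1.29 ± 0.20 SE (n = 5 each), so the ratio of Pdyn to Avp was 2.44-fold lower in dehydrated lobes. That difference holds the rise of Avp itself, 1.38, beside the change of 0.09 of Pdyn. Avp alone separated the groups, at 1602.6 to 2513.2 in dehydrated and 717.4 to 909.7 in control arrays. The difference is therefore given as a description that says nothing of the Pdyn transcript itself.

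Log2 Cck minus log2 Oxt, set in the same way, was -0.96, -0.90, -0.80, -0.86 and -1.29 in dehydrated arrays and -0.04, -0.13, 0.42, -0.07 and -0.17 in control arrays. Again no array of one group reached the other. The mean difference of -0.96 holds the rise of Oxt, 0.83, and the change of -0.13 of Cck, which did not pass. Detection calls were not used here, so the share of background in the low Cck signal is unknown, and the difference is given as a description that says nothing of the Cck transcript itself.

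**Figure D4:**
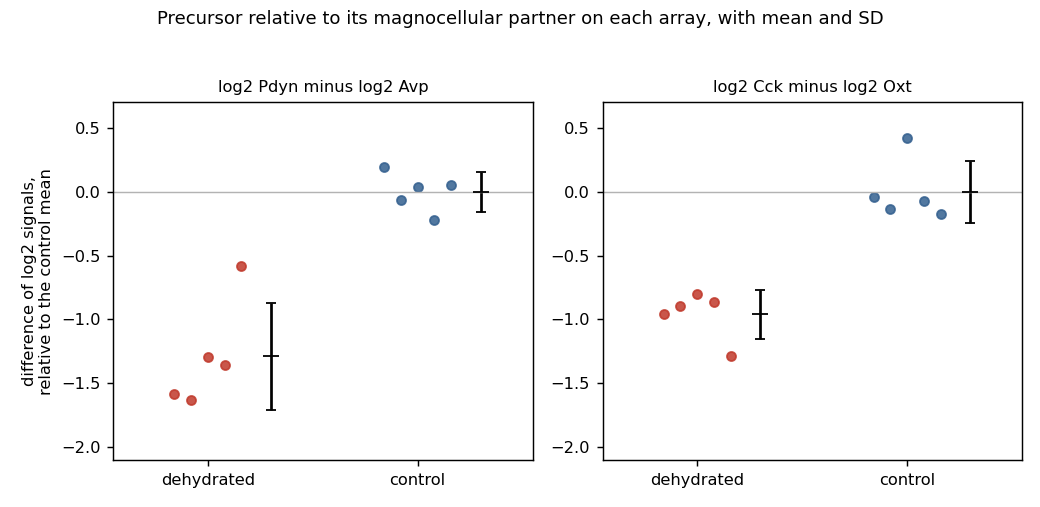
Difference of log2 signals within each array, Pdyn minus Avp and Cck minus Oxt, relative to the mean of the control arrays (line at 0), for 5 dehydrated (left, red) and 5 control arrays (right, blue) with mean and SD. Dehydrated arrays lie between -1.63 and -0.58 for Pdyn and between -1.29 and -0.80 for Cck, below all control arrays.

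Cartpt (Entrez Gene 29131), the precursor of CART peptides, had signals of 90.9, 201.0, 103.4, 101.4 and 79.1 on dehydrated arrays and 89.4, 96.3, 104.2, 93.8 and 81.2 on control arrays. Dehydrated 2 stood far above all other arrays, and the remaining dehydrated arrays fell within or next to the control range. The log2 change of 0.22 ± 0.18 SE (95% interval -0.17 to 0.61, limma adjusted p = 0.572) was 0.0077 without dehydrated 2 (adjusted p = 0.984). That array also had the highest 3' to 5' ratio of all 10, at 2.67, and the highest anterior lobe hormone mean, at 9.66. With the ratio as a covariate the change of Cartpt was 0.055, and with the anterior lobe hormones as a covariate it was 0.12. Since the change rests on dehydrated 2, these fits cannot tell causes apart, and the cause was not tested.

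Npy (Entrez Gene 24604), the precursor of neuropeptide Y, had signals of 83.4, 78.9, 129.5, 93.8 and 85 on dehydrated arrays and 146.3, 94.4, 100.7, 122.9 and 111.5 on control arrays. Except for dehydrated 3, the dehydrated arrays lay below every control array. The log2 change was -0.28 ± 0.14 SE (95% interval -0.58 to 0.02) and did not pass (limma adjusted p = 0.317). Without dehydrated 3 it was -0.40 (adjusted p = 0.169), and over the 23 alternatives it stayed negative, between -0.40 and -0.17.

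The other 4 members were below the filter, and their values come from the same fit over all 31042 probe sets, where 1.03% passed. Of the 11 member probe sets 1 passed there, again Nmb (limma adjusted p = 0.00353). At an unadjusted p under 0.05, 3 of the 11 were counted, against 12.8% of all. Nts (Entrez Gene 299757), the neurotensin precursor, had signals of 4.1, 0.7, 3.1, 1.1 and 5.3 on dehydrated arrays and 14.1, 10.7, 14.1, 1.4 and 23.2 on control arrays. Except for control 4, every control array lay above every dehydrated array. The log2 change was -1.06 ± 0.34 SE and did not pass (adjusted p = 0.187). It passed without control 4 (-1.39, adjusted p = 0.0277), whereas leaving out any other single array gave an adjusted p of 0.121 to 0.357. At these signals the size depends on the pseudocount, and the change was -1.67 with 1 and -0.48 with 20 in place of 5.

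Tac1, the precursor of substance P, had signals of 0.6 to 3.2 in dehydrated and 1.1 to 5.4 in control arrays (log2 change -0.21, limma adjusted p = 0.723). Sst, the somatostatin precursor, had 1.0 to 21.8 in dehydrated and 3.7 to 11.8 in control arrays (-0.06, adjusted p = 0.971). Vip, the precursor of vasoactive intestinal peptide, had 1.1 to 11.2 in dehydrated and 0.9 to 10.1 in control arrays (0.43, adjusted p = 0.611). The groups overlapped for all 3.

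Genes acting before or after these precursors came from lists which, like the marker lists, were chosen with earlier results of these data known. Of 11 measured peptide processing enzymes 1 fell and none rose. Pcsk2, which cleaves several precursors including those of dynorphin and enkephalin, had signals of 330.0, 317.8, 338.5, 398.8 and 571.7 on dehydrated arrays and 635.6, 669.3, 785.8, 616.3 and 866.5 on control arrays, with no overlap. Pam, the amidating enzyme, was at 1561 ± 65.8 in dehydrated and 1789 ± 38.5 in control lobes (SD, n = 5 each). All its dehydrated arrays lay below its controls, yet the log2 change of -0.20 did not pass (limma adjusted p = 0.0915). Cpe, the carboxypeptidase that trims the cut peptides, changed by 0.14 (adjusted p = 0.504). The median log2 change of the 11 was 0.03, against -0.01 over all tested probe sets.

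Of 9 measured peptide-degrading enzymes 1 rose and none fell. Enpep, the aminopeptidase that acts on angiotensin, was at 186 ± 12.6 in dehydrated and 133 ± 20.1 in control lobes (SD, n = 5 each, log2 change 0.48, limma adjusted p = 0.0208), although its other probe set changed by -0.44 (adjusted p = 0.278). The median of the 9 was -0.01. Of 7 measured other peptide precursors 1 rose and none fell, with a median of 0.04. Apln, the apelin precursor, was at 251 ± 23.1 in dehydrated and 171 ± 31.7 in control lobes (SD, n = 5 each, log2 change 0.55, adjusted p = 0.0117), while its other probe set changed by 0.09 (adjusted p = 0.847). The 23 other precursors on the array were below the filter.

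Most receptors for the members gave little signal. Of 22 on the array 17 were below the filter, which kept 60% of all probe sets. None of the 5 measured passed (limma, 0 of 5 also at an unadjusted p under 0.05). Sort1 was the brightest of the 5, at 275 ± 14.8 in dehydrated and 271 ± 13.9 in control lobes (SD, n = 5 each). The smallest p of the 5 was that of Sstr3, a somatostatin receptor (log2 change 0.26, limma adjusted p = 0.559). It was at 29.6 to 44.4 in dehydrated and 16.8 to 40.4 in control arrays. None of the 9 markers of hypothalamic neurons other than magnocellular ones was above the filter, and none of 9 measured axon and neuron markers passed (limma). At an unadjusted p under 0.05 were 3 of these last 9, against 17.4% of all tested probe sets. Of the 3, Gap43 at -0.31 and Map1b at -0.15 were lower in dehydrated lobes, and Sncg at 0.41 was higher. Mapt changed by 0.06, but its other probe sets gave -0.36 and -0.21, and that of Map1b gave -0.59. The other probe sets of Nefl and Stmn2 gave 0.02 and 0.06. None of these other probe sets passed (limma adjusted p = 0.122 to 0.972). Among these axon and neuron markers the smallest p was that of the growth cone gene Gap43, at 387 ± 28.2 in dehydrated and 481 ± 57.4 in control lobes (SD, n = 5 each, log2 change -0.31, adjusted p = 0.0750), without overlap of the groups. Groups without overlap and with dehydrated lower were found in 1.81% of all tested probe sets.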

How the data were processed

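RNA of the neurointermediate lobe was hybridised to 1-colour Affymetrix rat arrays. The deposited linear intensity values were made by the authors with GCOS 1.2, per the submitters' processing notes; algorithm and settings are not given in the sources used here. The mean after trimming 2% at each end was 100.0 on each of the 10 arrays, no 2 columns were identical, and no rescaling was added. Of 31099 probe sets 57 controls were left out. Symbols came from the platform annotation, and checking them against RefSeq (GRCr8) changed 0. A gene was represented by its brightest kept probe set.

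Groups came from the sample labels; array numbers are names in deposition order. Group differences were fitted by limma 3.58.1 under R 4.3.3 (intensity trend, two-sided). Single values used the exact permutation test over 252 splits (Python 3.11.15). Probe sets, partner pairs, list genes and most named genes followed written rules. These named all members and up to 3 called genes per list, else the one with the smallest p. They also named Pomc, Pcsk2, Cpe and Pam, and the 3 genes most like each called member. Outside the rules were Tshb, Drd2, Tbx19, S100b, Aqp4, Rax, Pecam1, Map1b, Sncg, Sort1, Nmbr, Oprk1 and Ace. So were the correlations of Nmb with genes other than the 3 most like it. The members and lists were chosen with earlier results of these data known. The fit was tested on simulated data. Depth does not apply to arrays, whose number limits precision. Alternatives changed normalization, pseudocount, filter, variance model, covariates, arrays and probe set averaging.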

Additional observations from a re-analysis of the deposited data

Results flagged for a closer look

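In 3 of 22 groups of 5 arrays, 1 for each of 11 probe sets and 2 conditions, a single array stood apart from the other 4 by the gap test, which picks out about 1 in 20 groups by chance. Dehydrated 5 was highest for Pdyn on its first probe set, at 904.5, where the other dehydrated arrays were at 677.0 to 703.9. The same array was highest for Nmb, at 177.4, and it had the lowest 3' to 5' ratio of its group, 1.61. Dehydrated 2 was highest for Cartpt, at 201.0.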

How the results depend on the processing

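The count of member probe sets that passed was 1 in each of the 23 alternatives, and it was Nmb each time. Both pair differences kept their direction in all alternatives, which carry the rise of Avp or Oxt throughout. Pdyn against Avp ran from -1.63 to -1.20, and Cck against Oxt from -1.004 to -0.82. The -1.63 came with the second Pdyn probe set, of unknown background and tried after the data were seen. Leaving out single arrays gave -1.47 to -1.20 for Pdyn against Avp and -1.004 to -0.85 for Cck against Oxt. The count of all called probe sets, the background of these results, was 458 and became 240 with no intensity trend and 1398 without dehydrated 5 and control 1. Leaving out single arrays gave 218 to 1156, with 1156 without dehydrated 5, 218 and 301 without dehydrated 3 and 1, and 290, 288, 299 and 304 without control 2, 3, 4 and 5. The cause was not tested. Dehydrated 5 had the lowest 3' to 5' ratio of its group, 1.61, and control 1 the highest of its group, 2.52. Without both, the ratio was 2.05 to 2.67 in dehydrated and 1.26 to 1.91 in control arrays. In that alternative RNA integrity and condition therefore cannot be told apart. Signs turned for changes that had not passed: the second Pdyn probe set adjusted for the 3' to 5' ratio (0.060), Pdyn with its probe sets averaged (-0.078), and Cck (-0.21 to 0.0075 when single arrays were left out, positive without dehydrated 5), also without dehydrated 5 and control 1 (0.0044). Sst, fitted with no filter, turned to 0.018 with a pseudocount of 20 and ran from -0.34 to 0.20 when single arrays were left out. The group difference of the 3' to 5' ratio was 0.24 to 0.56 when single arrays were left out, with an exact permutation p of 0.0476 without control 1. That of the anterior lobe hormones was -0.0058 to 0.39. No paired analysis was possible because the labels give no replicate numbers or pairing. Signal over background is unknown, which limits Cck, Tac1, Sst, Vip and Nts most.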

Other observations

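Among receptors, 2 below the filter were singled out after their values were seen. Nmbr, the neuromedin B receptor, had signals of 2.5, 7.1, 12.6, 11.4 and 8.4 on dehydrated arrays and 10.2, 13.6, 18.0, 12.7 and 12.1 on control arrays. Its groups overlapped, and in the fit over all probe sets its log2 change was -0.50 (limma adjusted p = 0.429). Oprk1, the receptor of dynorphin, had 12.4 to 28.6 on dehydrated arrays and 23.4 to 33.5 on control arrays, with a change of -0.53 (adjusted p = 0.318).

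Of 10587 other genes, Rfng, Nptx1 and Fkbp4 varied most like Nmb over the 10 arrays once each group's mean was taken off (r = 0.94 for each). None of them passed between groups (limma adjusted p = 0.858, 0.362 and 0.870). Pcsk2, which also fell, correlated with Nmb within groups at r = 0.67 and was number 458 of the 10587. Gfap, which rose, was at 0.48, Tshb at 0.07, Avp at -0.13, Fshb at -0.26, Pomc at -0.52 and Oxt at -0.61. These values rest on 10 arrays that share their scaling and are descriptions.

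The enzyme gene Ace, which acts on angiotensin and on enkephalins, was singled out after its values were seen because its probe sets differed. One of them rose, with a log2 change of 0.83 (limma adjusted p = 0.0240) though its groups overlapped. The other, which stood for the gene, changed by 0.30 (adjusted p = 0.382).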
